A study of Mus musculus with 19 samples.

Results

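The guanylate-binding protein genes (Gbp) of the mouse lie in separate clusters on chromosomes 5 and 3, and 10 of them are described here, out of 35598 genes in the data. The 6 on chromosome 5 are Gbp4, Gbp6, Gbp8, Gbp9, Gbp10 and Gbp11, and the 4 on chromosome 3 are Gbp2, Gbp3, Gbp5 and Gbp7. They were chosen by name, with the differences between the genotype labels already known, so those differences are given as a description and without a test. Changes between culture stages within a genotype label did not enter the choice and were tested.

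Messenger RNA was sequenced in 19 libraries of primary myoblasts from mouse hind-limb muscle. Myoblasts are muscle precursor cells, which stop dividing in culture, differentiate and fuse into multinucleate myotubes. Cells labelled WT and cells labelled Glud1KO (Glud1-deficient, written here as KO-labelled) were sampled as dividing myoblasts at 24 h, as differentiated myotubes at 48 h and as fused myotubes at 72 h. The WT label covered 3, 3 and 4 libraries at these stages and the KO label 3, 2 and 4. The labels give no strain, age, Cre driver or deleted exon, and they do not say whether replicates came from separate animals or cultures. The p-values below therefore measure only the spread between these libraries, which may be technical.

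The targeted gene, Glud1, did not separate the labels: its level was 184 to 192 CPM (counts scaled to a common library size with TMM factors) in WT-labelled myoblasts and 185 to 190 CPM in KO-labelled ones, and the ranges also overlapped in both later stages. File names mark all 19 libraries as KO and add a letter T for those carrying the KO label, and the labels were followed. Libraries held 16168131 to 30742634 estimated counts. All 6 myogenic markers were present in every group, with a summed level of 1495 to 7419 CPM in a library. In myoblasts the sum was 1654 to 1803 CPM with the WT label and 1495 to 1563 CPM with the KO label. Myog (-0.63), Des (-0.33) and Ckm (-0.81) were lower with the KO label there (edgeR adjusted p at most 0.0228), and Pax7, Myf5 and Myod1 were not called. In differentiated myotubes Pax7 (-0.92), Myod1 (-0.31) and Myf5 (-0.19) were lower (edgeR adjusted p at most 0.0122). Myf5 was also lower in fused myotubes (-0.31, edgeR adjusted p = 3.18e-06). The other myogenic markers were not called at these later stages. Of 6 leukocyte markers, Ptprc, Adgre1, Csf1r and Lyz2 had group means of at most 0.179 CPM, while Itgam reached 15.8 ± 1.36 CPM (SD, n = 3) in WT-labelled and 25.3 ± 2.55 CPM (SD, n = 2) in KO-labelled differentiated myotubes. Cd68 was 1.45 and 1.34 CPM in WT-labelled and KO-labelled myoblasts and 0.183 and 0.137 CPM in fused myotubes, a fall with both labels (edgeR adjusted p of 7.47e-08 and 4e-08). The 4 fibroblast markers summed to 285.9 to 293, 23.73 to 26.55 and 7.353 to 8.199 CPM with the WT label in stage order. With the KO label they summed to 267.9 to 273.6, 7.487 to 11.64 and 5.877 to 7.152 CPM. The labels did not overlap in this sum at any stage, and 15.2%, 24.7% and 7.99% of all genes were likewise lower without overlap. Most of that sum was Col3a1 (282 and 4.82 CPM in WT-labelled myoblasts and fused myotubes), Dpt was listed at 0 in all libraries, and Pdgfra went the other way, from 1.16 to 2.78 CPM (log2 change 1.29 ± 0.21, edgeR adjusted p = 2.57e-06). Between the labels Col3a1 was called in differentiated myotubes (-1.43, edgeR adjusted p = 1.68e-11), and not in myoblasts (-0.09) or fused myotubes (-0.31). Ly6a fell from 5.89 to 0.068 CPM with the WT label and was lower with the KO label in myoblasts (log2 difference -0.94 ± 0.17, edgeR adjusted p = 0.000288) and differentiated myotubes (-3.98 ± 0.87, edgeR adjusted p = 0.00105). The part of these markers in the stage changes and label differences below was not tested.

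Guanylate-binding proteins are large GTPases of the dynamin superfamily, and in most cells they are made in quantity only after interferon has been sensed. Interferon signals pass through cell-surface receptors to the nucleus, where gamma-activated and interferon-stimulated response elements in Gbp promoters are bound. The proteins gather on the vacuoles and surfaces of intracellular pathogens and take part in inflammasome activation. Gbp2 is recruited to the vacuole of Toxoplasma, Gbp5 promotes inflammasome assembly, and Gbp7 has been tied to delivery of oxidase subunits to phagosomes.

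The chromosome 5 members are near-copies of each other, which bears on how reads can be divided among them. The stretches below are 84 coding bases of 1 exon each, placed round the codons of the GTP-binding P-loop, the loop that holds the phosphates of GTP. They are read 5′ to 3′ from the mouse GENCODE M21 transcripts (build GRCm38), and capitals mark bases that differ from Gbp6.
Gbp6 (chromosome 5, 105290847 to 105290930, minus strand): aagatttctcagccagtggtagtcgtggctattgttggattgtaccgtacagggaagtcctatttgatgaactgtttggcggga
Gbp9 (chromosome 5, 105105674 to 105105757, minus strand): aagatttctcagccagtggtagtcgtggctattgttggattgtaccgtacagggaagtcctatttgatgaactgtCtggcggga
Gbp11 (chromosome 5, 105343756 to 105343839, minus strand): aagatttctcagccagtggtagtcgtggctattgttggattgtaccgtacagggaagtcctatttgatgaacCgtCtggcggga
Gbp8 (chromosome 5, 105050874 to 105050957, minus strand): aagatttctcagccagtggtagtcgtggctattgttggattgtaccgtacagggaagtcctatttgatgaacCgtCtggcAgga
Gbp4 (chromosome 5, 105136848 to 105136931, minus strand): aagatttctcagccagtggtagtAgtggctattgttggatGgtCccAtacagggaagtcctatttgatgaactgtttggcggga
Gbp10 (chromosome 5, 105235961 to 105236044, minus strand): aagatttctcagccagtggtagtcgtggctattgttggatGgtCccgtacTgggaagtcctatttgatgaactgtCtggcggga
Gbp7 (chromosome 3, 142534619 to 142534702, plus strand): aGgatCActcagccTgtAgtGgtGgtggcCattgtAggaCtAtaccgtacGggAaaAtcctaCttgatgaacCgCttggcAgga
Gbp3 (chromosome 3, 142561842 to 142561925, plus strand): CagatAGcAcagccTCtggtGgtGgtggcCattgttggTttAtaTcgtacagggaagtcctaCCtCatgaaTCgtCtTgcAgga
Gbp2 (chromosome 3, 142623790 to 142623873, plus strand): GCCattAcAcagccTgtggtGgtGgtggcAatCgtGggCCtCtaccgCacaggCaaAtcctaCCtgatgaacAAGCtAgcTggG
Gbp5 (chromosome 3, 142500653 to 142500736, plus strand): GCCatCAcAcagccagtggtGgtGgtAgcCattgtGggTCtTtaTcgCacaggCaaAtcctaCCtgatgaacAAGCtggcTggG
The other chromosome 5 members differed from Gbp6 at 1 to 4 of these bases and the chromosome 3 members at 18 to 26.

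Over the aligned coding sequence, pairs of chromosome 5 members were 90.0% to 98.4% identical, with Gbp6 and Gbp10 the closest pair. Pairs within chromosome 3 were 64.8% to 78.6% identical, and pairs between the clusters 63.8% to 75.9%. Transcripts were also compared by 31-base words, among the 10 members, Gbp2b and Gm43302, a read-through gene spanning Gbp10 and Gbp6. Of the words in Gbp6, 67.8% also occurred in Gm43302 and 51.4% in Gbp10. Of those in Gbp10, 80.8% also occurred in Gbp6, 76.7% in Gm43302 and 10.2% in none of the other genes compared. The corresponding share of own words was 26.1% for Gbp6, 65.7% for Gbp11, 68.9% for Gbp8, 81.7% for Gbp9 and 86.5% for Gbp4, and 94.4% to 99.97% for the chromosome 3 members. Only 44 words were shared between the clusters. A read that matches several transcripts is divided among them as fractions. Gbp2 had a whole-number count (within 0.001) in 19 of 19 libraries, 16 of them above 0, and Gbp3 plus Gbp7 in 19, 18 of them above 0. Gbp5 was whole in 15 libraries, 6 of them above 0, and fractional in the others. By contrast, Gbp4, Gbp6, Gbp8, Gbp9 and Gbp10 were whole in 0 of 19. The chromosome 3 counts were also mostly far smaller, and the part of depth in this contrast was not tested. With fractional counts, levels of single chromosome 5 members are uncertain where reads could be split. The chromosome 5 sum does not move when members of that cluster exchange reads, so it is given beside the members throughout. Gbp4, Gbp8 and Gbp9 also overlap in the annotation, and no source used here says if reads were assigned by strand.

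**Figure D1:**
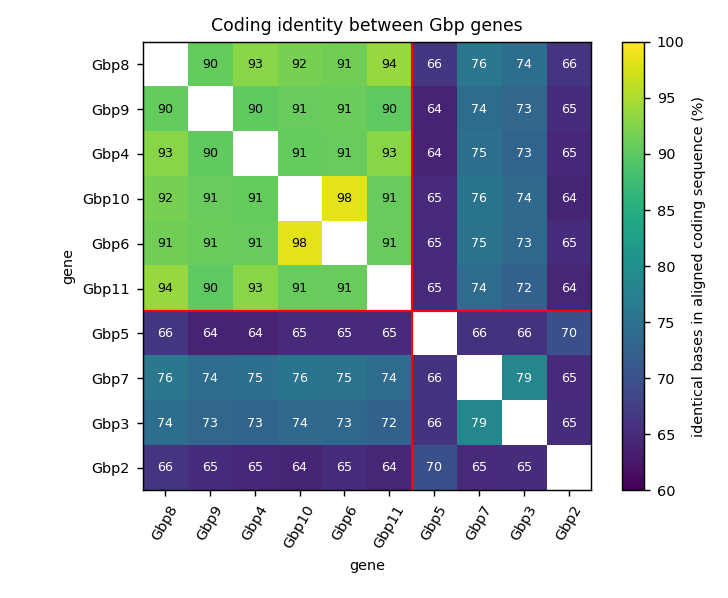
Percentage of identical bases in the aligned coding sequence for each pair of the 10 Gbp genes, with red lines between the clusters. Pairs within chromosome 5 (upper left) reach 90.0% to 98.4%, and no other pair exceeds 78.6%.

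Cultured myoblasts carried abundant RNA from the chromosome 5 cluster and almost none from the chromosome 3 cluster. In WT-labelled libraries the chromosome 5 sum was 254, 259 and 255 CPM in myoblasts, 483, 494 and 483 CPM in differentiated myotubes, and 1150, 1170, 1110 and 1210 CPM in fused myotubes. In KO-labelled libraries it was 66.3, 71.9 and 74.6 CPM, then 118 and 124 CPM, then 79.2, 82.2, 83.1 and 79.7 CPM. The lowest WT-labelled library therefore lay above the highest KO-labelled library at all 3 stages. The chromosome 3 sum was 0.949 to 1.297 CPM in WT-labelled and 0.945 to 1.31 CPM in KO-labelled myoblasts, and it was at most 0.314 CPM in each fused library, with 1 KO-labelled library at 0. A bulk sample cannot tell fewer expressing cells from less RNA in each cell.

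**Figure D2:**
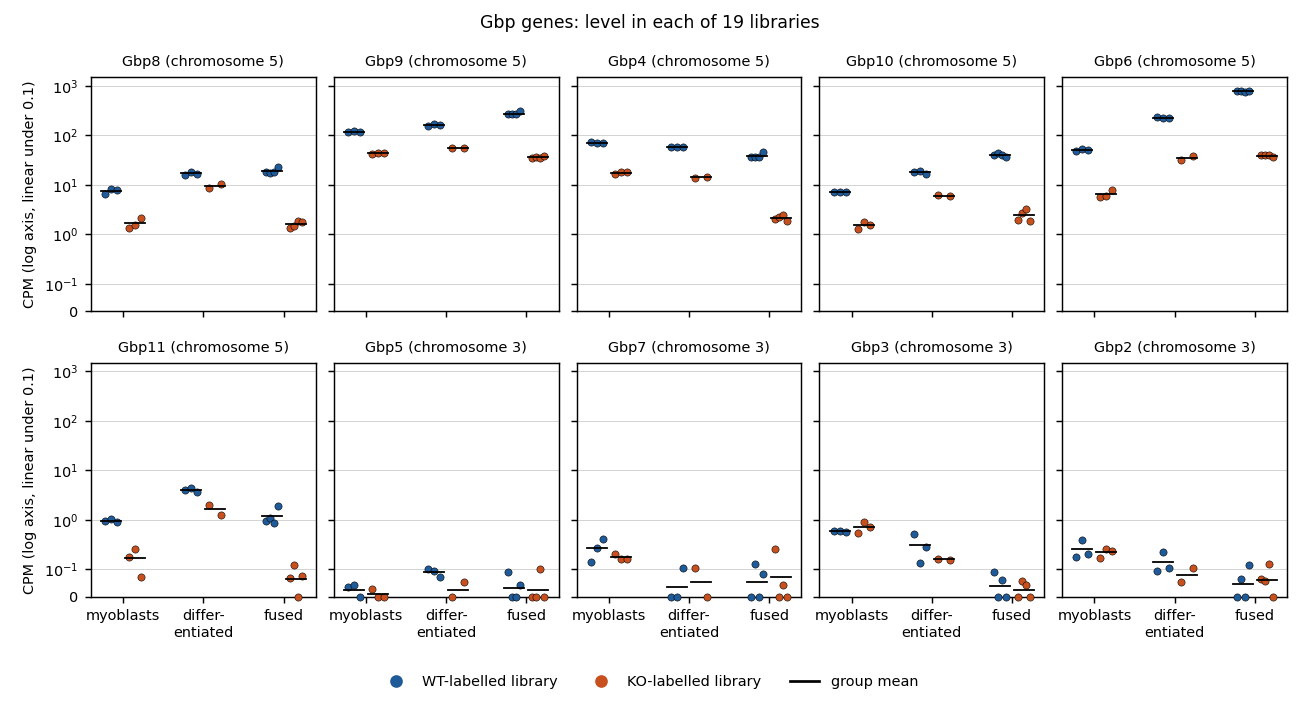
Level of each Gbp gene in each of the 19 libraries, in CPM on a log axis that is linear under 0.1, by culture stage and genotype label; the bars are group means. Chromosome 5 members lie higher with the WT label (blue) than with the KO label (orange), and the chromosome 3 members stay under 1 CPM.

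Within the WT label the cluster on chromosome 5 rose at each step. The sum changed by a log2 fold change of 0.93 ± 0.04 (SE) from myoblasts to differentiated myotubes (edgeR adjusted p = 7.68e-18) and by 1.25 ± 0.04 from differentiated to fused myotubes (edgeR adjusted p = 1.23e-20). In the first step 5 of the 6 members rose and 1 fell, against 42.4% of all genes called higher and 42.6% called lower. In the second step 3 rose, 2 fell and 1 was not called, against 37.4% and 37.7%. Over both steps together 4 rose and 1 fell, against 42.2% and 43.4%. The median log2 change of the 6 members over both steps was 1.29, and that of all tested genes was -0.01. The shares of members called are thus to be read against an assay in which most genes changed.

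Within the KO label the same cluster rose and then fell back. The sum changed by 0.77 ± 0.05 on the log2 scale in the first step (edgeR adjusted p = 4.44e-14) and fell by 0.57 in the second (SE 0.05, edgeR adjusted p = 3.04e-11). In the first step 5 of 6 members rose and 1 fell, against 41.3% and 42.5% of all genes. In the second step 5 of 6 fell and 1 rose, against 34.4% and 35.8%, and the median change of the members was -1.90. Over both steps 2 rose, 2 fell and 2 were not called, against 42.7% and 44.5%. The net change of the sum was small, 0.20 ± 0.04 (edgeR adjusted p = 0.000142), and its sign depended on the scaling: with library size alone it was -0.126 (edgeR adjusted p = 0.00883), a scaling under which the all-gene median was -0.353 in place of -0.035. On the per-length scale the sum was 41.4 ± 3.00 TPM (a length-corrected abundance, SD, n = 3) in KO-labelled myoblasts and 41.5 ± 2.16 TPM (SD, n = 4) in KO-labelled fused myotubes.

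**Figure D3:**
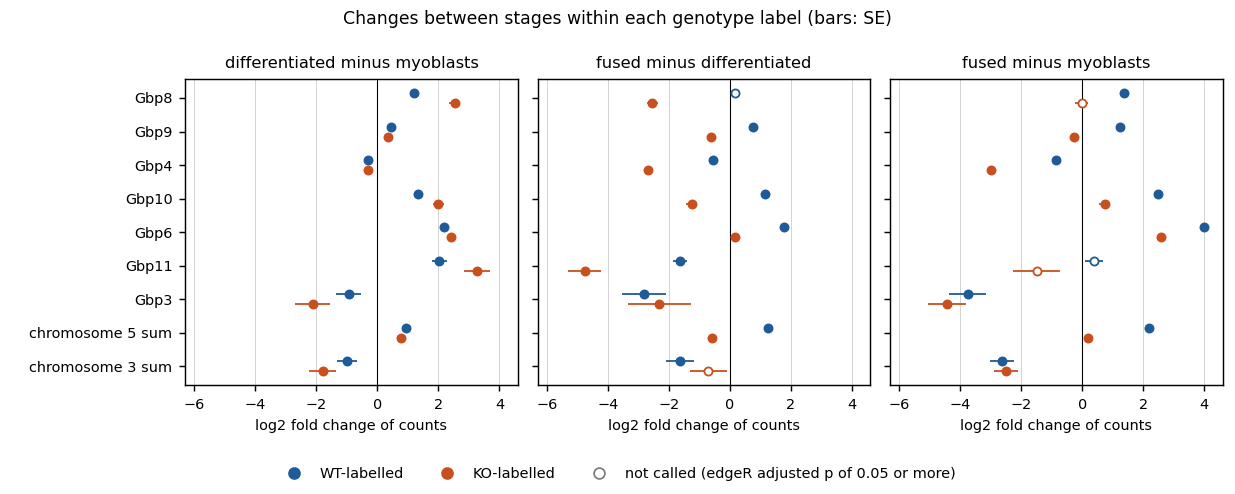
Log2 fold change of counts between stages within the WT label (blue) and the KO label (orange), for the 7 members that passed the count filter and for both cluster sums; bars are SE and open symbols were not called. From differentiated to fused myotubes the chromosome 5 sum lies at 1.25 with the WT label and at -0.57 with the KO label.

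Gbp6 had the largest net rise of the members, in both labels. In WT-labelled libraries its level was 47.7, 51.9 and 49.6 CPM in myoblasts, 230, 225 and 227 CPM in differentiated and 783, 803, 751 and 794 CPM in fused myotubes. The 3 groups did not overlap, and the log2 change from myoblasts to fused myotubes was 3.98 ± 0.06, a 15.8-fold rise (edgeR adjusted p = 4.44e-29). In KO-labelled libraries it was 5.64, 6.04 and 7.78 CPM, then 31.2 and 37.7 CPM, then 39.2, 39.4, 40.7 and 36.6 CPM. The first step was 2.41 ± 0.09 with the KO label (edgeR adjusted p = 4.65e-19) and 2.19 ± 0.06 with the WT label (edgeR adjusted p = 4.85e-23), and the later KO-labelled groups overlapped. The second step, 0.18 ± 0.07, passed the test narrowly (edgeR adjusted p = 0.034) and lost its call without KO-labelled differentiated replicate 1 (0.052, edgeR adjusted p = 0.62), without KO-labelled fused replicate 2 (edgeR adjusted p = 0.056) or without KO-labelled fused replicate 3 (edgeR adjusted p = 0.0886).

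Gbp10, the nearest paralog of Gbp6, rose at both steps with the WT label, and with the KO label it rose and then fell. Its WT-labelled values were 7.29, 7.05 and 7.12 CPM in myoblasts, 18.1, 19 and 16.8 CPM in differentiated and 40.6, 44.4, 39.2 and 37.3 CPM in fused myotubes, a net log2 change of 2.49 ± 0.09 (edgeR adjusted p = 3.79e-20). Its KO-labelled values were 1.25, 1.79 and 1.55 CPM, then 6.18 and 5.95 CPM, then 1.95, 2.64, 3.32 and 1.85 CPM. The groups of each label did not overlap. The second KO-labelled step was -1.26 ± 0.16 (edgeR adjusted p = 1.51e-07), where that of Gbp6 was 0.18, and the net KO-labelled change was 0.74 ± 0.18 (edgeR adjusted p = 0.000424). Since only 10.2% of Gbp10 words are its own, its values rest largely on how reads were divided with Gbp6 and Gm43302.

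Gbp9 was the most abundant member in myoblasts per length. WT-labelled libraries held 119, 120 and 118 CPM, then 157, 169 and 162 CPM, then 269, 267, 266 and 306 CPM. KO-labelled libraries held 41.7, 44.2 and 44.8 CPM, then 55.5 and 54.3 CPM, then 34.6, 36.3, 34.8 and 37.5 CPM. From myoblasts to fused myotubes Gbp9 rose with the WT label (log2 change 1.22 ± 0.04, edgeR adjusted p = 4.47e-20) and fell with the KO label (-0.28 ± 0.05, edgeR adjusted p = 1.78e-05), with no overlap between stages in either. The first step was a rise with both labels: 0.46 ± 0.05 with the WT label (edgeR adjusted p = 6.32e-10) and 0.33 ± 0.06 with the KO label (edgeR adjusted p = 1.31e-05). With an offset for effective transcript length both calls were lost, at 0.185 (edgeR adjusted p = 0.0602) and 0.082 (edgeR adjusted p = 0.487), and with library size alone the KO-labelled one was lost at 0.027 (edgeR adjusted p = 0.679). Per length, Gbp9 was 79.4 ± 7.80 TPM in WT-labelled myoblasts and 81.6 ± 6.32 TPM in WT-labelled differentiated myotubes (SD, n = 3 each).

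Gbp8 separated the stages in another way. At the WT label it measured 6.42, 8.07 and 7.88 CPM in myoblasts, 16.1, 18.5 and 16.7 CPM in differentiated and 18.0, 17.2, 18.1 and 22.9 CPM in fused myotubes, so the later groups overlapped (log2 change 0.16 ± 0.10, edgeR adjusted p = 0.128). At the KO label it measured 1.35, 1.51 and 2.12 CPM, then 8.72 and 10.4 CPM, then 1.31, 1.5, 1.84 and 1.81 CPM. It thus peaked in KO-labelled differentiated myotubes, with a rise of 2.53 ± 0.17 (edgeR adjusted p = 2.07e-13) and a fall of 2.55 (SE 0.18, edgeR adjusted p = 1.34e-12). Its net KO-labelled change was -0.02 ± 0.21, with an interval (2 SE either side) of -0.45 to 0.41.

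Gbp4 was the one chromosome 5 member that fell at every step. Levels with the WT label were 72.5, 71.1 and 71.7 CPM, then 57.4, 57.9 and 57.0 CPM, then 36.3, 37.0, 36.2 and 45.7 CPM, a net log2 change of -0.88 ± 0.06 (edgeR adjusted p = 6.04e-14). Levels with the KO label were 16.2, 18.0 and 18.3 CPM, then 14.0 and 14.2 CPM, then 2.06, 2.26, 2.49 and 1.89 CPM, a net change of -2.98 ± 0.11 (edgeR adjusted p = 1.55e-19). No stage overlapped another within a label. Most of the KO-labelled fall came in the second step (-2.68 ± 0.14, edgeR adjusted p = 1.10e-15), and the first step (-0.31 ± 0.09, edgeR adjusted p = 0.00426) was not called with the effective-length offset (-0.167, edgeR adjusted p = 0.199).

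Gbp11, annotated as a polymorphic pseudogene, peaked in differentiated myotubes with both labels. Among WT-labelled libraries it was 0.939, 1.05 and 0.895 CPM, then 3.92, 4.32 and 3.59 CPM, then 0.965, 1.09, 0.856 and 1.93 CPM. The first step was 2.03 ± 0.25 (edgeR adjusted p = 2.30e-08) and the second -1.65 ± 0.23 (edgeR adjusted p = 3.67e-07), and fused myotubes overlapped myoblasts (edgeR adjusted p = 0.204). Its KO-labelled estimated counts summed to 16 over 3 myoblast libraries, 62 over 2 differentiated and 4 over 4 fused libraries, with log2 changes of 3.26 ± 0.42 (edgeR adjusted p = 7.01e-08) and -4.76 ± 0.55 (edgeR adjusted p = 1.59e-08). The last of these gives 0.0552 CPM, with an exact Poisson interval of 0.0150 to 0.141 CPM that covers counting error only.

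Between the labels, each of the 6 chromosome 5 members that passed the filter was lower with the KO label at all 3 stages, with no overlap between groups. Over all genes, 15.2% were lower without overlap in myoblasts, 24.7% in differentiated and 7.99% in fused myotubes, and nothing is read from these counts because the members were chosen on this contrast. The log2 difference of the sum, KO minus WT, was -1.85 ± 0.04 in myoblasts, -2.01 ± 0.05 in differentiated and -3.84 ± 0.04 in fused myotubes. In fused myotubes the differences are 14.3-fold for the sum, 20.03-fold for Gbp6, 17.65-fold for Gbp4, 15.8-fold for Gbp10, 11.7-fold for Gbp8 and 7.76-fold for Gbp9. Gbp11 had 99 summed counts against 4, and its fitted difference was -4.37 ± 0.51, or 20.68-fold. It became -3.85 without KO-labelled fused replicate 3 and -4.90 without KO-labelled fused replicate 2. The members stood apart least in differentiated myotubes for Gbp8, at -0.84 ± 0.13, the only difference of a chromosome 5 member under 2-fold. So 6, 5 and 6 members were at least 2-fold lower at the 3 stages, beside 2.16%, 5.26% and 2.17% of all genes. Gbp9 had the smallest difference in myoblasts, at -1.45 ± 0.05, and Gbp6 the largest, at -2.94 ± 0.08. For the sum, the difference in fused myotubes was further from 0 than that in myoblasts, by -1.99 ± 0.06.

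Gbp9 held the largest share of the chromosome 5 RNA in myoblasts and Gbp6 in fused myotubes, as a description with no test. Per length, Gbp9 made up 50.1% ± 1.92 (SD, n = 3) of the summed TPM of the cluster in WT-labelled myoblasts and 22.6% ± 0.464 (SD, n = 4) in fused myotubes, while Gbp6 went from 20.6% ± 0.469 to 68.3% ± 0.896 and Gbp4 from 20.7% ± 1.05 to 2.76% ± 0.219. With the KO label Gbp9 went from 64.3% ± 2.23 (SD, n = 3) to 40.6% ± 4.67 (SD, n = 4) and Gbp6 from 9.88% ± 1.66 to 49.97% ± 3.357. In WT-labelled myoblasts the order by level was Gbp9 at 79.4 TPM, then Gbp4 and Gbp6 at 32.7 ± 0.377 and 32.5 ± 1.22 TPM, which overlapped, then Gbp8 at 7.82, Gbp10 at 5.01 and Gbp11 at 0.773 TPM. In WT-labelled fused myotubes it was Gbp6 at 418.6, Gbp9 at 138.5, Gbp10 at 20.98, Gbp4 at 16.95, Gbp8 at 16.83 and Gbp11 at 0.787 TPM. There Gbp8 (14.5 to 21.4 TPM) overlapped both Gbp4 (15.4 to 19.3 TPM) and Gbp10 (19.6 to 22.2 TPM), which did not overlap each other. In KO-labelled fused myotubes Gbp6, at 20.7 ± 0.514 TPM, and Gbp9, at 16.9 ± 2.79 TPM, were neighbours in that order whose ranges overlapped.

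**Figure D4:**
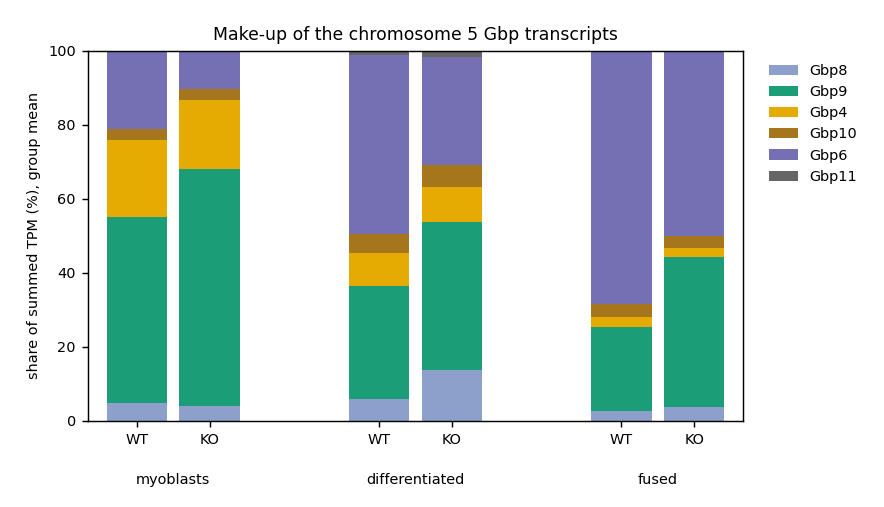
Share of each chromosome 5 member in the summed TPM of the cluster, as the mean of each group, for the WT and KO labels at each stage. Gbp6 grows from 20.6% to 68.3% with the WT label and from 9.88% to 49.97% with the KO label.

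The deposited files also split the counts by transcript, and transcripts of Gbp9 and Gbp6 that keep an intron took a larger share in differentiated myotubes, which was not tested. Gbp9-203, which keeps an intron, took 8.36% ± 2.09 (SD, n = 3) of the Gbp9 count in WT-labelled myoblasts, 31.6% ± 4.89 (SD, n = 3) in differentiated and 5.93% ± 0.835 (SD, n = 4) in fused myotubes. Its KO-labelled share was 13.1% ± 2.197 (SD, n = 3), 40.9% ± 4.62 (SD, n = 2) and 5.31% ± 0.762 (SD, n = 4). The lowest differentiated library, at 28.5%, lay above the highest library of the other stages, at 15.0%. The coding transcript Gbp9-201 was lowest there: 66.15% and 76.3% in WT-labelled myoblasts and fused myotubes and 48.7% in differentiated myotubes. Gbp6-202, which also keeps an intron, took 1.65%, 5.82% and 0.551% of the Gbp6 count with the WT label in stage order and 2.23%, 5.26% and 0.310% with the KO label. Its lowest differentiated library, at 4.18%, lay above the highest of the other stages, at 2.91%. Gbp4-205 also keeps an intron and was highest in differentiated myotubes by group mean, at 1.12% with the WT label and 1.17% with the KO label. Gbp10-202 and Gbp8-203, of the same kind, were highest there with the WT label only. With the KO label Gbp10-202 went from 8.09% in myoblasts to 3.32% in differentiated myotubes, and Gbp8-203 from 20.3% to 13.1%. The coding transcript Gbp6-201 held, in stage order, 46.7% ± 2.82, 38.3% ± 1.32 and 41.75% ± 0.680 with the WT label, and most of the rest went to Gbp6-203, which is annotated as a target of nonsense-mediated decay. Of the Gbp4 count, 82.1% to 97.2% by group mean went to Gbp4-202, also annotated for nonsense-mediated decay. Gm43302, a read-through gene spanning Gbp10 and Gbp6 with no 31-base word of its own, ranged from 2.13 to 244 estimated counts between WT-labelled differentiated replicates, so its values are not interpreted. Adding it to the chromosome 5 sum was tried after seeing the data and is among the alternatives.

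The chromosome 3 members were near the limit of detection. Over all 19 libraries Gbp3 had 148.4 estimated counts, Gbp2 had 63, Gbp7 had 53.6 and Gbp5 had 15.6, and Gbp3 alone passed the count filter. Per length their sum was 0.929 ± 0.131 TPM (SD, n = 3) in WT-labelled myoblasts, beside 158 ± 9.47 TPM for the chromosome 5 sum. Gbp2 had 5, 9 and 6 counts in WT-labelled and 6, 8 and 7 in KO-labelled myoblasts, and at most 3 in each fused library. Gbp5 had at most 2.35 counts in each library.

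The chromosome 3 RNA fell from myoblasts to fused myotubes in both labels. The summed counts with the WT label were 92 in myoblasts, 41 in differentiated and 14 in fused myotubes, or 1.13, 0.566 and 0.179 CPM, with exact Poisson intervals of 0.910 to 1.38, 0.406 to 0.768 and 0.0979 to 0.301 CPM. The KO-labelled sums were 107, 12 and 14, or 1.11, 0.318 and 0.193 CPM. From myoblasts to fused myotubes the sum fell by 2.63 on the log2 scale with the WT label (SE 0.39, edgeR adjusted p = 5.78e-07) and by 2.51 with the KO label (SE 0.38, edgeR adjusted p = 1.01e-06). The step from KO-labelled differentiated to fused myotubes, -0.71 ± 0.60, was not called (edgeR adjusted p = 0.298). Gbp3 had 17, 13.8 and 16.65 counts in WT-labelled myoblasts and 2, 0, 1 and 0 in fused myotubes, and 19, 27 and 22 against 0, 1, 1 and 0 with the KO label, so the groups did not overlap. It was called lower in all 6 stage comparisons, but 3 of these calls did not hold throughout the alternatives. The call from KO-labelled myoblasts to differentiated myotubes was lost with the effective-length offset (-1.444, edgeR adjusted p = 0.0577). The calls from WT-labelled myoblasts to differentiated myotubes (edgeR adjusted p = 0.0385) and from KO-labelled differentiated to fused myotubes (edgeR adjusted p = 0.0483) were each lost when any of 5 single libraries was left out. Both were also lost with DESeq2 (adjusted p of 0.113 and 0.0535), and the latter with no count filter (edgeR adjusted p = 0.0696). Between the labels the sum differed by -0.02 ± 0.27 in myoblasts, -0.82 ± 0.50 in differentiated and 0.10 ± 0.56 in fused myotubes. The groups overlapped in myoblasts and fused myotubes, while both KO-labelled differentiated libraries (0.314 and 0.321 CPM) lay below the 3 WT-labelled ones (0.442 to 0.717 CPM), as did 24.7% of all genes. With the effective-length offset this difference turned to 0.415. The WT over KO ratio of pooled counts had exact intervals of 0.758 to 1.35, 0.918 to 3.72 and 0.410 to 2.10, for counting error only.

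The promoters of the chromosome 3 members, low as these were, hold the letters of interferon elements. RefSeq promoters (build GRCm38.p6, 250 bases before the start) were at hand for 4 of the 10 members, all on chromosome 3. The core of the interferon-stimulated response element, searched as 2 copies of GAAA with any 2 bases between them on either strand, occurred in at least 1 promoter of each of these 4, and in 2.98% of 32851 promoters. A gamma-activated site, TTCNNNGAA, which reads alike on both strands, occurred in 2 of them, Gbp5 and Gbp7, and in 7.02% of all promoters. The 30 bases round the response element are printed 5′ to 3′ on the plus strand, with the match in capitals; Gbp3 holds 2 overlapping matches.
Gbp2 (chromosome 3, 142620594 to 142620623): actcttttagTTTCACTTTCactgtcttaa
Gbp3 (chromosome 3, 142559992 to 142560021): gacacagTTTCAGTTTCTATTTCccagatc
Gbp7 (chromosome 3, 142530273 to 142530302): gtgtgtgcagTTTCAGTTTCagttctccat
Gbp5 (chromosome 3, 142496759 to 142496788): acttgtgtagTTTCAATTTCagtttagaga
A match is a string of letters, and no binding was measured here.

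The balance between the clusters, as log2 of the chromosome 5 over the chromosome 3 sum, needs no scaling between libraries. WT-labelled libraries gave 8.04, 7.62 and 7.75 in myoblasts, 9.35, 10.1 and 9.70 in differentiated and 12.4, 12.4, 13.6 and 12.1 in fused myotubes, with no overlap between stages. KO-labelled libraries gave 6.11, 5.76 and 6.05, then 8.40 and 8.51, then 7.84, 9.21, 7.96 and 11.2. From myoblasts to fused myotubes the mean rose by 4.83 with the WT label and 3.09 with the KO label, each at an exact two-sided permutation p of 0.0571 (adjusted over 6 comparisons, 0.114), the smallest that these group sizes allow. The highest KO-labelled value, 11.2, is that of fused replicate 4, which held 0 chromosome 3 counts, so it is set by the 0.5 added. Without that library the KO-labelled rise was 2.364, and with 5 counts added in place of 0.5 it was 1.677. The WT-labelled rise ranged from 3.784 to 5.174 over all alternatives run. KO-labelled fused against differentiated myotubes differed by 0.60 (exact permutation p = 0.8), and this value ranged from -0.118 to 1.009 as single libraries were left out, turning negative without KO-labelled fused replicate 4.

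Beside the chromosome 5 cluster, the 2 nearest tested genes on the higher-coordinate side were lower with the KO label at all 3 stages, and the 2 nearest on the lower-coordinate side were called lower in fused myotubes and not called at the earlier stages. The cluster spans 332.3 kb (chromosome 5, 105014150 to 105346472), and 14 genes within 1 Mb, Gm43302 aside, had enough counts for a test. Of these, 3 were lower in myoblasts, 5 in differentiated and 8 in fused myotubes, against 6.69%, 14.1% and 6.72% of all genes called lower, and 0, 1 and 0 were higher (4.86%, 11% and 6.32% of all genes). The shares for myoblasts rest on 1747 calls, which became 925 without WT-labelled myoblast replicate 3, 1067 without KO-labelled myoblast replicate 3, 1144 without KO-labelled myoblast replicate 1 and 2625 when only the myoblast libraries were fitted. At an unadjusted p under 0.05 the neighbour counts were 6, 5 and 9 lower and 0, 1 and 1 higher. The share of all genes at that threshold is not given, here or for later counts at an unadjusted p, and the shares above are for adjusted p. Lrrc8b (69.3 kb away) and Lrrc8c (172.9 kb away) encode subunits of the volume-regulated anion channel. Lrrc8b was 80.8 ± 1.01 and 51.6 ± 2.15 CPM in WT-labelled and KO-labelled myoblasts (SD, n = 3 each) and 14.4 ± 0.799 and 6.41 ± 0.886 CPM in fused myotubes (SD, n = 4 each), with log2 differences of -0.65 ± 0.05, -1.28 ± 0.09 and -1.17 ± 0.08 over the 3 stages (edgeR adjusted p at most 8.13e-10).

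Lrrc8c was 24.5 ± 0.488 and 11.9 ± 1.14 CPM in myoblasts (SD, n = 3 each), with differences of -1.04 ± 0.09, -3.37 ± 0.47 and -1.55 ± 0.34 (edgeR adjusted p at most 0.00285). Its call in fused myotubes was lost with the effective-length offset, at a difference of -1.542 (edgeR adjusted p = 0.0564). The third gene lower at each stage was Spp1, the secreted phosphoprotein osteopontin, 573.1 kb away, with differences of -0.33 ± 0.07, -0.72 ± 0.09 and -0.61 ± 0.06 (edgeR adjusted p at most 0.00124). On the lower-coordinate side, Abcg3 (31.4 kb away) was not called in myoblasts (-0.57 ± 1.03) or differentiated myotubes (-0.48 ± 0.49). Zfp951 (154.1 kb away) differed by -0.19 ± 0.10, -0.12 ± 0.12 and -0.37 ± 0.10 and was called in fused myotubes (edgeR adjusted p = 0.0127). Lrrc8d, 353.5 kb away, differed by -0.13 ± 0.06, -0.14 ± 0.09 and -0.06 ± 0.09 and was not called (edgeR adjusted p at least 0.195). Other differences of at least 2-fold were Abcg3 in fused myotubes (-1.78 ± 0.46, edgeR adjusted p = 0.0106, at 0.626 against 0.165 CPM), Hsd17b11 in differentiated myotubes (-1.98 ± 0.50, edgeR adjusted p = 0.00374, at 0.522 against 0.133 CPM) and the uncalled Gm42793 in fused myotubes (-1.39 ± 0.90), which overlaps Spp1. Gm43302 was left out of these counts after seeing the data, because 95.65% of its 31-base words occur in Gbp6; with it, 6 of 15 genes were lower in differentiated myotubes and the other counts of calls were as given. Without KO-labelled differentiated replicate 2 the count for differentiated myotubes was 3 in place of 5, and for myoblasts it was 5 in place of 3 when only those libraries were fitted. Around the chromosome 3 cluster (144 kb long, 142493978 to 142638008) 8 genes were tested, and 0, 2 and 0 were called lower: Unc5c (-0.84 ± 0.29) and Bmpr1b (-0.79 ± 0.25), both in differentiated myotubes. At an unadjusted p under 0.05, edgeR had 1, 2 and 1 lower and 1, 0 and 0 higher, and DESeq2 called 0, 1 and 0. The 2 calls became 0 without KO-labelled differentiated replicate 2 and 1 without KO-labelled or WT-labelled differentiated replicate 1. In fused myotubes the count became 1 without KO-labelled fused replicate 2 or 3, and in myoblasts it became 1 in 4 of 13 alternatives (a mean CPM of at least 1, no filter, only the libraries compared, the replicate block). Gm43612 there reached 2.28 ± 1.78 in myoblasts without a call.

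**Figure D5:**
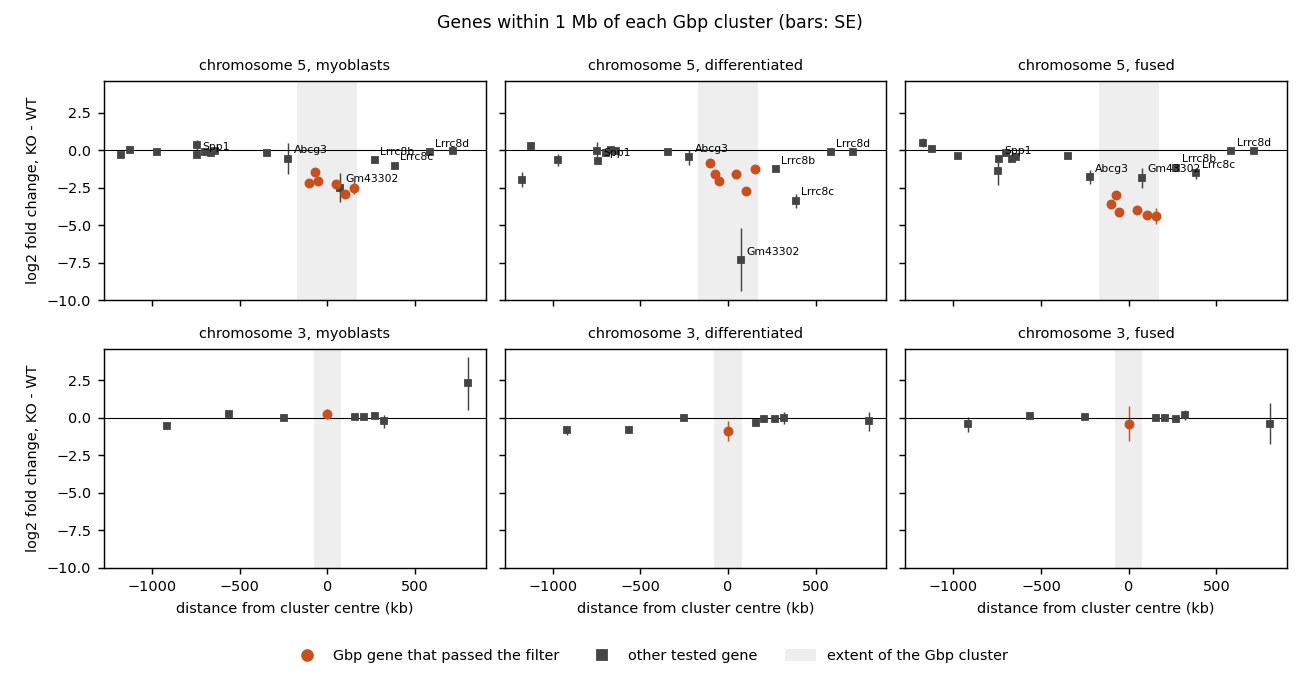
Log2 difference between the labels (KO minus WT) for tested genes within 1 Mb of each cluster, against distance from the centre of the cluster in kb, at each stage; orange circles are Gbp genes, dark squares other genes (Gm43302 included), bars SE and the grey band the cluster. Lrrc8b and Lrrc8c lie below 0 at each stage, from -0.65 to -3.37, and Lrrc8d lies within 0.15 of it.

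The interferon pathway was examined from a list of 65 genes, of which 42 had enough counts. The list also holds the atlastin genes Atl1, Atl2 and Atl3, dynamin-like GTPases that are not known as interferon genes. None of the 9 interferon ligand genes had enough counts: Ifng reached at most 2 counts in a library, Ifne at most 1, and the other ligand genes were listed at 0. All 6 receptor genes were measured, and 0, 1 and 1 of them were called higher with the KO label in myoblasts, differentiated and fused myotubes, with none lower (edgeR; at an unadjusted p under 0.05, 0, 1 and 3 were higher and 0, 1 and 0 lower). The receptor called was Ifngr2, a subunit of the interferon-gamma receptor, named after its values were seen, at 0.33 ± 0.06 and 0.23 ± 0.04 in the later stages. In differentiated myotubes its call was lost with the effective-length offset, at 0.20 (edgeR adjusted p = 0.285). Over all roles 8, 8 and 5 of the 42 were lower with the KO label and 1, 1 and 2 higher, with median log2 differences of -0.12, -0.17 and -0.03. Atl3 is among the 8 lower in differentiated myotubes (-1.09, edgeR adjusted p = 3.01e-08). The background shares are those given for the neighbours. The 1 higher in myoblasts became 0 with the offset, with DESeq2 or without any 1 of 5 libraries (each KO-labelled replicate and WT-labelled replicates 2 and 3). The 1 in differentiated myotubes became 0 with the offset and 2 without KO-labelled differentiated replicate 2, and the 2 in fused myotubes became 4 without WT-labelled fused replicate 4.

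At all 3 stages 3 of the 42 were lower, against 0.76% of all genes, and 0 were higher at all 3, against 0.205%. Those lower were Tap1, a subunit of the peptide transporter for antigen presentation (-0.63 ± 0.08, -2.12 ± 0.23 and -0.67 ± 0.14), the immunity-related GTPase Irgm1 (-0.56 ± 0.12, -1.20 ± 0.22 and -0.39 ± 0.10) and Stat3, a transducer of interleukin signals (-0.34 ± 0.05, -0.19 ± 0.05 and -0.19 ± 0.04), with edgeR adjusted p at most 0.00890 throughout. In fused myotubes none of the 3 kept its call with the effective-length offset, at -0.57 for Tap1, -0.37 for Irgm1 and -0.131 for Stat3 (edgeR adjusted p of 0.0897, 0.0731 and 0.391). Stat3 also lost its call in myoblasts, at -0.279 (edgeR adjusted p = 0.12). Under that offset the counts of lower genes were 4 in myoblasts and 1 in fused myotubes, and the number of all genes called also fell, from 1747 to 586 in myoblasts. Irgm1 in fused myotubes was also not called without WT-labelled fused replicate 4 (edgeR adjusted p = 0.0628) or KO-labelled fused replicate 3 (edgeR adjusted p = 0.0506), and Stat3 in differentiated myotubes without KO-labelled differentiated replicate 1 (edgeR adjusted p = 0.0819). Without KO-labelled fused replicate 3 the count lower in fused myotubes was 2.

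From WT-labelled myoblasts to differentiated myotubes, 9 of the 42 pathway genes rose and 25 fell, with a median log2 change of -1.10, against 42.4% of all genes higher and 42.6% lower. With the KO label 10 rose and 25 fell, with a median of -0.87, against 41.3% and 42.5%. The chromosome 5 sum rose in both. From differentiated to fused myotubes 19 rose and 8 fell with the WT label, against 37.4% and 37.7%, and the chromosome 5 sum rose. With the KO label 22 rose and 6 fell, against 35.8% and 34.4%, and the chromosome 5 sum fell.

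The genes most like the clusters over the 19 libraries were ranked among 13394 genes by Pearson correlation of log2 CPM (with 0.5 CPM added), as a description of points that share libraries and depth. Nearest to the chromosome 5 sum was Dbh, dopamine beta-hydroxylase, at r = 0.967, with group means of 0.875, 4.04 and 6.53 CPM for the WT label and 0.0205, 0.423 and 0.354 CPM for the KO label. Tap2, the partner of Tap1, followed at r = 0.887 (39.3, 44.4 and 64.4 CPM, then 12.1, 14.4 and 26.4 CPM), and then the corepressor gene Tle3, the adenylate kinase gene Ak4 and Vasn, at 0.874 to 0.835. The chromosome 3 sum was nearest to Stk3, Hps3, Galc, Vps35 and Pak2, at r = 0.963 to 0.959. Stk3, a kinase of the Hippo pathway, had group means of 40, 21.8 and 13 CPM with the WT label and 39.3, 17.5 and 11.7 CPM with the KO label.

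Within chromosome 5, Gbp9 and Gbp10 were the closest pair across the 19 libraries, at r = 0.956, followed by Gbp6 and Gbp10 at 0.952, and Gbp4 and Gbp6 were the least close, at 0.420. Gbp6 and Gbp3, the best counted members of each cluster, had r = -0.551.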

How the data were processed

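Deposited tables, 1 for each library, list estimated counts and TPM values of 121843 transcripts, per the file headers; the submitters' processing notes name bcl2fastq 2.20, fastp 0.20.0, kallisto 0.46.1, edgeR 3.36 and build GRCm38.p6. Lengths and effective lengths were deposited beside them. Transcripts were joined to genes with GENCODE M21 (121018 matched), and estimated counts were summed per gene and rounded. Members, lists and tests were chosen with earlier results of these data known. Named were all members, neighbours called at each stage or at least 2-fold different, pathway genes whose call had 1 direction throughout the stages (others as counts), and the 5 genes most like each sum; Ifngr2, Atl1, Atl2, Atl3, Lrrc8d, Zfp951, Unc5c and Bmpr1b were named after their values were seen.

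Counts of 15123 genes passing filterByExpr were tested with edgeR 4.0.16 (quasi-likelihood, TMM, all 19 libraries, 6 groups) in R 4.3.3, with Benjamini-Hochberg adjustment and calls under 0.05. Cluster sums were fitted in a second table in place of the members. Fold changes are from this fit, and ± is SE unless SD is named. Replicate pairs differed by more than sampling noise (chi-square per degree of freedom 2.14 to 7.68). The ratio used 0.5 added counts. Alternatives were DESeq2 1.42.0, library size alone, other filters, an effective-length offset, fewer libraries and a replicate block. Coding sequences were aligned with Biopython 1.88.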

Additional observations from a re-analysis of the deposited data

Results flagged for a closer look

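WT-labelled fused replicate 4 stood above the other 3 libraries of its group in 3 chromosome 5 members. Gbp4 was 45.7 CPM there and 36.2 to 37.0 CPM in the others. Gbp8 was 22.9 CPM against 17.2 to 18.1 CPM, and Gbp9 was 306 CPM against 266 to 269 CPM. Each is past Dixon's limit for 4 samples, in 18 groups of 4 checked, where chance passes it in about 1 of 20. Without that library the changes from WT-labelled myoblasts to fused myotubes were -0.973 for Gbp4, 1.253 for Gbp8 and 1.174 for Gbp9, each still called (edgeR adjusted p at most 1.15e-11), and Gbp11 moved from 0.382 to 0.013 without a call in either.

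The chromosome 5 sum went opposite ways from differentiated to fused myotubes, by 1.25 on the log2 scale with the WT label and -0.57 with the KO label, with no overlap between stages in either. Gbp9 did so over the same step (0.77 and -0.62) and from myoblasts to fused myotubes (1.22 and -0.28), and so did Gbp10 over the later step (1.17 and -1.26). The difference between the labels was not tested here, because the members were chosen with it known.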

How the results depend on the processing

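With library size alone the chromosome 5 sum in KO-labelled cells reversed from myoblasts to fused myotubes (-0.126, edgeR adjusted p = 0.00883), and the difference between labels in differentiated myotubes was -2.068. With that scaling the median change of all genes over the same step was -0.353 in place of -0.035. With the effective-length offset the chromosome 3 sum, KO minus WT in differentiated myotubes, reversed to 0.415; the fall in KO-labelled cells from myoblasts to differentiated myotubes lost its call (-0.644, edgeR adjusted p = 0.227), the later one gained it (-2.17, edgeR adjusted p = 0.00387), and 0 chromosome 5 members were called lower in the first KO-labelled step. The causes were not tested. The 1 member called higher from KO-labelled differentiated to fused myotubes, Gbp6, became 0 with DESeq2, with a mean CPM of at least 1 or with only the libraries compared, and was 0 to 1 as single libraries were left out. Gbp11 in KO-labelled fused against myoblasts was called lower in 6 of 13 alternatives (edgeR or DESeq2 adjusted p of 0.0217 to 0.258). The chromosome 3 sum, KO minus WT, crossed 0 in myoblasts (-0.143 to 0.096) and fused myotubes (-0.31 to 0.436). The other changes of the cluster sums kept their direction and, between stages, their side of the threshold under every alternative run. Counts of chromosome 5 members also ranged from 4 to 5 higher in the first step of each label, 3 to 4 higher in the second WT-labelled step and 2 to 3 lower over both KO-labelled steps; the remaining counts did not change. No ratio could reach 0.05 with these group sizes, so only its direction is compared: that of KO-labelled fused to differentiated myotubes was -0.216 with 5 added counts and 2.086 from TPM sums, and the others stayed above 0. Replicate numbers showed no clear pairing: 41 same-numbered pairs had correlations of -0.054 to 0.056, and 108 other pairs -0.075 to 0.066. Values this small cannot show if a number marks a shared animal, culture or day. With the replicate block the WT-labelled net change of the chromosome 5 sum was 2.172, and no call of a sum was lost; Gbp3 from KO-labelled differentiated to fused myotubes lost its call (edgeR adjusted p = 0.105) and Gbp11 gained the one above. Depth limits the chromosome 3 members, where fused libraries held at most 7.35 summed counts.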
